A study of Mus musculus with 7 samples.

Results

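The complement and coagulation genes are 34 genes, listed by name, among the 55423 features of a table of RNA-sequencing counts from mouse skin tumours. All 34 were found in the table by symbol, and 33 had enough reads to be tested. They fall into 8 roles, namely initiation of the classical and lectin pathways, central components, the alternative pathway, terminal components, complement regulators, anaphylatoxin receptors, coagulation factors and anticoagulants. The list names genes by function, and no measured value enters the rule, but it was chosen with earlier results of these data known.

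Complement is a protease cascade of blood and tissue fluid. C1q or lectins recognise a surface, the protease C1r activates C1s, and the proteases C1s and the MASPs cleave C4 and C2. The resulting convertase cleaves C3, which factor B and properdin amplify. Fragments C3a and C5a recruit myeloid cells, and regulators such as CD55 and CD59 shield host cells. Coagulation starts when tissue factor binds factor VII, proceeds through factors X and V to thrombin and fibrin, and is held back by tissue factor pathway inhibitor and by the thrombomodulin, protein C and protein S system. The liver secretes most of the plasma proteins of both cascades, while macrophages make C1q, fibroblasts make C1r, C1s, C3 and C4, and endothelium and epidermal keratinocytes carry thrombomodulin.

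The tumours were cutaneous squamous cell carcinomas (cSCC) of mice in which tamoxifen applied to the skin activated a Cre recombinase under the involucrin (Ivl) promoter, which is active in committed epidermal cells, at 7 to 10 weeks of age. Ivl:BRAFV600E tumours expressed oncogenic BRAFV600E, and Ivl:BRAFV600E-SOX2LSL tumours (SOX2 tumours in the following) carried in addition a SOX2 transgene behind a lox-stop-lox cassette, linked to a green fluorescent reporter. BRAFV600E and the Cre were thus shared by both groups, and the comparison addresses the addition of SOX2. Tumours were collected at clinical endpoint, so genotype and time since induction cannot be told apart. 3 tumours of each genotype were compared, with 23565432 to 31152826 counts per tumour. The tumour numbers 1 to 3 are names without order, and levels are given for tumours 1, 2 and 3 in that sequence as CPM, counts relative to library size after TMM scaling. Ivl:BRAFV600E tumours 1 and 2 came from female mice and tumour 3 from a male mouse. SOX2 tumours 1 and 2 came from male mice and tumour 3 from a female mouse, so sex was not balanced between the genotypes. Sox2 stood at 0.716, 0.508 and 0.238 CPM in Ivl:BRAFV600E tumours and at 182, 155 and 158 CPM in SOX2 tumours, and the reporter EGFP at 0 in every Ivl:BRAFV600E tumour and at 139, 110 and 113 CPM in SOX2 tumours, as the labels state.

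SOX2 tumour 1 stood apart from the others. It had the highest level of 27 of the 33 tested members, whereas it had the highest level of 28.6% of all tested genes, and Ivl:BRAFV600E tumour 2 had the lowest level of 20 members, against 23.4% of all tested genes. The keratinocyte markers Krt5 (2371 to 3900 CPM over all tumours), Krt14 and Trp63 were present in every tumour. Skeletal muscle markers were called higher for 10 of 12 genes, with sums of 4.85 to 16.5 CPM in Ivl:BRAFV600E and 791 to 3235 CPM in SOX2 tumours, and the part of admixed tissue in the results below was not tested. The hepatocyte markers Ttr, Apoa1, Apoc3 and Serpina1a were at or below 3 counts in every tumour, the other 3 of the list (Ahsg, Alb and Apoa2) reached 93, 13 and 6 counts, and the list summed to at most 3.41 CPM. Because these are bulk tumours, more cells of a type and more RNA per cell cannot be told apart for any gene below.

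Promoter stretches of members that the results turn on are given first, from the RefSeq promoters of mouse build GRCm38.p6, in the direction of transcription. Entries were found for 24 of the 34 members. C1qb and C1qc are shown as neighbouring genes whose levels ranked the 6 tumours alike, F5 as a member that fell and Pros1 as a member that rose, and capitals mark a motif match where there was one. The stretches are C1qb at chr4:136886201-136886450 (minus strand), C1qc at chr4:136893066-136893164 (minus strand, up to the GENCODE start), F5 at chr1:164151585-164151834 (plus strand) and Pros1 at chr16:62854057-62854306 (plus strand).
C1qb: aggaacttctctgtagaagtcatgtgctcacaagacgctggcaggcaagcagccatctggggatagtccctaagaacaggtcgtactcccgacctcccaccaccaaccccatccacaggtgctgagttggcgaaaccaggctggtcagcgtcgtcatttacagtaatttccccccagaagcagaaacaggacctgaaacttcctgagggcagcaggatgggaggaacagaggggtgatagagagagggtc
C1qc: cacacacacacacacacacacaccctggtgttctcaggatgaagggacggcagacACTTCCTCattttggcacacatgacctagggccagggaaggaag
F5: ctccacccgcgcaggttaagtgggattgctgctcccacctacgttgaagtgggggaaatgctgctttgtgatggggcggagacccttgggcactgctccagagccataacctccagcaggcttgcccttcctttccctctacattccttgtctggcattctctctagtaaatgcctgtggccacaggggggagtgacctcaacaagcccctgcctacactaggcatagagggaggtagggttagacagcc
Pros1: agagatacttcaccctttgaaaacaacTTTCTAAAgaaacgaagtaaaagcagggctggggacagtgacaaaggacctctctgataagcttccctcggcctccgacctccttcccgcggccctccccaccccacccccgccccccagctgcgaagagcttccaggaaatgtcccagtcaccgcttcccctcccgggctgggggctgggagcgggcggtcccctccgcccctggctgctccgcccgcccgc

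6 motifs were searched on both strands of the 250 bases before each start, with matches of different motifs counted separately where they overlap. The PU.1-type ETS motif GAGGAAGT was found in 1 of the 24 member promoters, that of C1qc, where the capitals show its reverse complement, and in 2.44% of 27025 promoters. The C/EBP motif TTNNGNAA was found in 11 member promoters, among them that of Pros1, where the capitals at positions -223 to -216 from the start show a minus-strand match, and in 36.9% of all promoters. The SOX motif ACAATG was found in 4 member promoters (Cd46, Cd59a, F7 and Tfpi) and in 11% of all, AP-1 (TGANTCA) in 3 (C3ar1, F3 and Procr) and in 6.87%, the TATA box (TATAAA) in 4 and in 13%, and the interferon-stimulated response element (ISRE) in 1 (Cd59a) and in 3.04%. These matches are a description of letters and not of binding.

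Of the 33 tested members, 4 passed the edgeR test at an adjusted p of 0.05, against 3.90% of all 24433 genes tested. Factor B (Cfb) and protein S (Pros1) rose in SOX2 tumours, where 2.39% of all genes were called higher, and factor V (F5) and thrombomodulin (Thbd) fell, where 1.51% of all genes were called lower. A further 6 members had an adjusted p between 0.05 and 0.1. The 3 values of each group did not overlap for 17 members, 15 higher and 2 lower in SOX2 tumours, against 34.2% of all genes (18.2% higher and 16.0% lower). The fitted log2 fold change was above 0 for 30 members and below 0 for 3 (F3, F5 and Thbd), and its median over the 33 was 1.84, against 0.04 over all genes tested. Leaving out the 2 members at 0 in every Ivl:BRAFV600E tumour gave a median of 1.81. Over the same 31 members the median was 0.90 without SOX2 tumour 1 and 1.504 to 2.235 without each other tumour. DESeq2 called 15 members (15.0% of all genes) and limma 7 (8.77% of all genes). With other scalings and filters 3 members were called with DESeq2 size factors (3.79% of all genes), 3 with upper-quartile scaling (3.99%), 10 without a filter on low counts (5.24%), 5 with filterByExpr (7.37%) and 1 with sex as a covariate (0.933%), which was C3ar1 and none of the 4 above. Without SOX2 tumour 1, 4 members were called (6.69% of all genes). With each other tumour left out edgeR called 0 members, where it called 0.0918%, 0.207% and 0.738% of all genes without Ivl:BRAFV600E tumours 1, 2 and 3 and 0.840% and 1.71% without SOX2 tumours 2 and 3. In those 5 fits 12 to 21 members had an unadjusted p below 0.05, as did 18.0% to 24.2% of all genes.

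**Figure D1:**
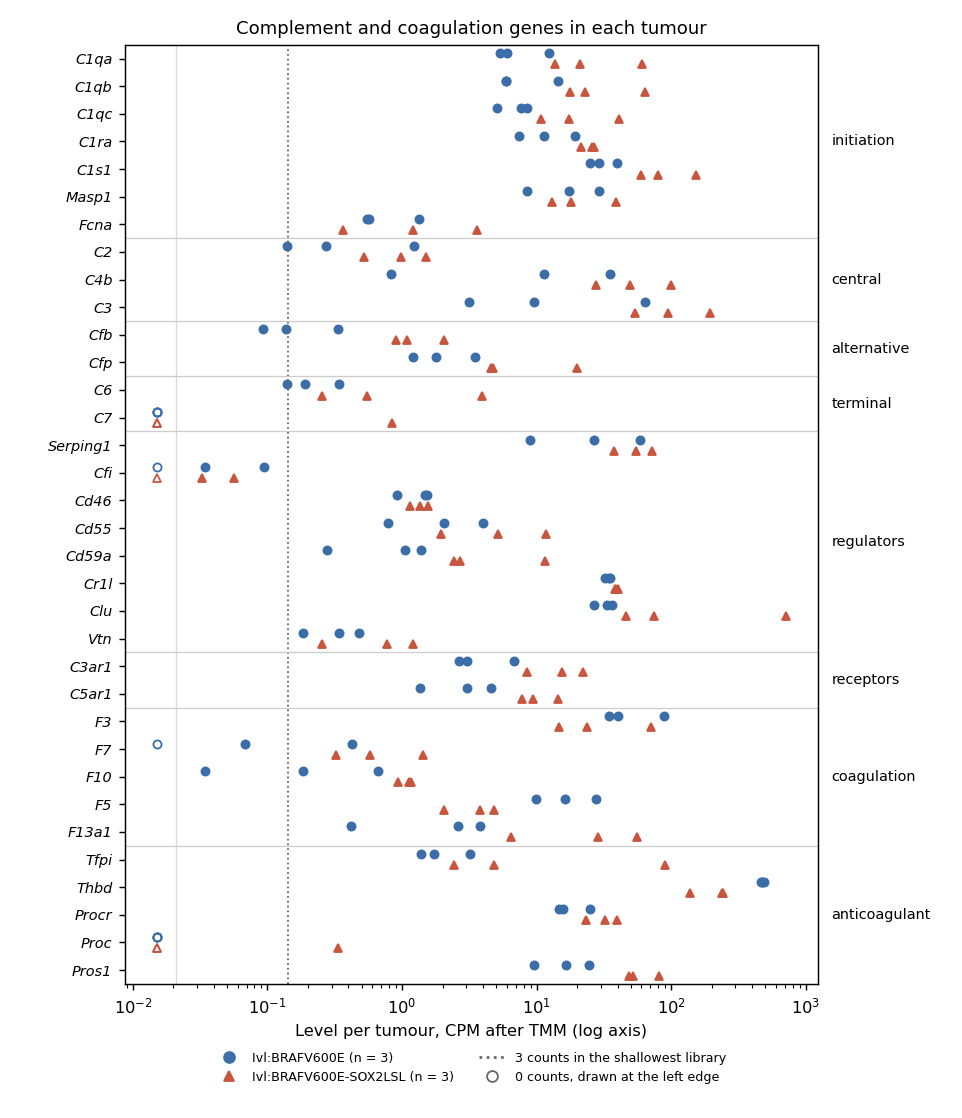
Level of each of the 34 genes in each tumour, in CPM after TMM on a log axis, with Ivl:BRAFV600E tumours as circles and Ivl:BRAFV600E-SOX2LSL tumours as triangles, ordered by role. Most triangles lie to the right of the circles, F5 and Thbd lie the other way, and C7 and Proc were counted only in SOX2 tumour 1.

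C1q, the recognition protein of the classical pathway, is built from 3 chains whose genes C1qa (chr4:136895917-136898803), C1qc (chr4:136889804-136893065) and C1qb (chr4:136880129-136886187) lie side by side on the minus strand of GRCm38. C1qa stood at 5.35, 6.05 and 12.4 CPM in Ivl:BRAFV600E tumours and at 60.3, 20.9 and 13.6 CPM in SOX2 tumours. C1qb stood at 5.90, 5.96 and 14.4 CPM against 63.6, 23 and 17.6 CPM, and C1qc at 5.12, 7.71 and 8.50 CPM against 40.8, 17.5 and 10.7 CPM. Every SOX2 tumour was above every Ivl:BRAFV600E tumour for each chain, but SOX2 tumour 3 lay close to Ivl:BRAFV600E tumour 3. The log2 fold changes were 2.00 ± 0.60 (SE) for C1qa, 1.99 ± 0.58 for C1qb and 1.70 ± 0.49 for C1qc, and none passed the test (edgeR adjusted p = 0.102, 0.0957 and 0.0929). Without SOX2 tumour 1 they were 1.12, 1.21 and 0.99 (adjusted p = 0.142, 0.133 and 0.0994).

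The genes of the proteases that C1q carries were also higher in every SOX2 tumour than in any Ivl:BRAFV600E tumour. C1s1, encoding the C1s protease, stood at 29.0, 24.9 and 39.4 CPM against 152, 80.0 and 59.7 CPM, with no overlap and a log2 fold change of 1.64 ± 0.36 (adjusted p = 0.0538). Without SOX2 tumour 1, C1s1 passed the test (log2 fold change 1.16, adjusted p = 0.0283). C1ra, encoding C1r, stood at 11.3, 7.39 and 19.3 CPM against 26.5, 25.7 and 21.2 CPM (log2 fold change 0.95 ± 0.33, adjusted p = 0.134). Both have near-identical copies (C1rb and C1s2) with which reads could be shared, and those copies were at or under 0.462 CPM in every tumour.

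Of the lectin pathway genes, Masp1, which encodes the MASP-1 protease, overlapped between the genotypes at 17.5, 8.41 and 28.9 CPM against 18.0, 39.1 and 12.9 CPM (log2 fold change 0.36 ± 0.53, adjusted p = 0.708), and its sign changed in 2 other fits. Ficolin A (Fcna), a recognition lectin, ranged from 0.546 to 1.34 CPM and from 0.361 to 3.61 CPM (adjusted p = 0.425), and its fold change was -0.0515 without SOX2 tumour 1. Of the 7 initiation genes, edgeR called 0, with 5 at an unadjusted p below 0.05 (25.7% of all genes), while DESeq2 called 4 and limma 1.

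The central components varied widely among the Ivl:BRAFV600E tumours. C3, on which all pathways converge, stood at 9.48, 3.14 and 63.3 CPM in them and at 192, 94.9 and 54.0 CPM in SOX2 tumours (log2 fold change 2.17 ± 1.02, adjusted p = 0.233). C4b, the classical pathway C4, stood at 11.4, 0.831 and 35.0 CPM against 99.0, 49.3 and 27.6 CPM (log2 fold change 1.90 ± 1.04, adjusted p = 0.295), and its near-identical copy C4a at 0.433 to 0.819 CPM over all tumours. In both genes Ivl:BRAFV600E tumour 3 lay above SOX2 tumour 3, so the groups overlapped. Ivl:BRAFV600E tumour 2, the lowest in both, was also the lowest in the fibroblast markers Dcn (49.6, 3.19 and 113 CPM against 103, 145 and 91.2 CPM) and Lum (2.31 CPM against 17.4 to 68.5 CPM in the other 5 tumours). The 9 fibroblast markers summed to 777 to 5127 CPM and to 3997 to 8367 CPM, with 0 called by edgeR, 2 at an unadjusted p below 0.05, 2 called by DESeq2 and 1 by limma, and their part in the C3 and C4b values was not tested. C2, which pairs with C4 in the convertase, ranged from 0.139 to 1.24 CPM and from 0.518 to 1.51 CPM (adjusted p = 0.516). Without Ivl:BRAFV600E tumour 3 the log2 fold changes were 4.16 for C3 (adjusted p = 0.0695), 3.24 for C4b (0.170) and 2.23 for C2 (0.140), and without SOX2 tumour 1 they were 1.55, 1.28 and 0.46. edgeR called 0 of these 3 genes, with 0 at an unadjusted p below 0.05 and 0 called by DESeq2 or limma.

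Cfb (chr17:34856374-34862518, minus strand), the protease of the alternative pathway convertase, rose from a very low level. It stood at 0.136, 0.0924 and 0.333 CPM in Ivl:BRAFV600E tumours, which are 4, 2 and 7 counts, and at 2.04, 0.907 and 1.08 CPM in SOX2 tumours, which are 73, 28 and 30 counts. No values overlapped, and the log2 fold change was 2.84 ± 0.59 (adjusted p = 0.0491). The call was lost without any 1 of the 6 tumours (adjusted p = 0.0607 to 0.186) and with upper-quartile scaling or DESeq2 size factors. The readthrough gene Gm20547 covers 79.5% of the exon length of Cfb and had 0 counts in every tumour. Gm20547 and Zbtb12 (29 to 47 counts against 56 to 170 counts) together cover 46.9% of that of C2, and how reads falling in 2 genes were counted is not given in the sources used here. Properdin (Cfp), which stabilises the convertase, stood at 1.77, 1.20 and 3.47 CPM against 20, 4.60 and 4.73 CPM, again without overlap (log2 fold change 2.19 ± 0.69, adjusted p = 0.111). Without SOX2 tumour 1 its log2 fold change was 1.12 (adjusted p = 0.179).

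The terminal components, which assemble the membrane attack complex, were near the limit of counting in Ivl:BRAFV600E tumours. There C6 had 10, 3 and 4 counts, against 141, 17 and 7 counts in SOX2 tumours. C6 stood at 0.341, 0.139 and 0.190 CPM against 3.94, 0.551 and 0.253 CPM (log2 fold change 2.78 ± 1.06, adjusted p = 0.160, and 0.81 without SOX2 tumour 1). C7 had 30 counts (0.839 CPM) in SOX2 tumour 1 and 0 in the other 5 tumours, where 3 counts correspond to at most 0.143 CPM, so no fold is given. C7 and C6 were thus both highest in SOX2 tumour 1. Of the 2 genes, edgeR and limma called 0, 1 had an unadjusted p below 0.05, and DESeq2 called 1.

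Regulators of complement ranged from near-equal levels to very high levels in 1 tumour. Clusterin (Clu), a secreted chaperone that blocks the terminal complex, stood at 33.4, 26.8 and 36.2 CPM against 714, 46.0 and 74.4 CPM. The groups did not overlap, but SOX2 tumour 1 carried most of the difference, as the log2 fold change of 3.11 ± 1.0 (adjusted p = 0.117) became 0.90 without it (adjusted p = 0.0621). Cd59a, a membrane inhibitor of the attack complex, stood at 1.06, 0.277 and 1.38 CPM against 11.4, 2.69 and 2.42 CPM (log2 fold change 2.60 ± 0.79, adjusted p = 0.104). Its copy Cd59b was at or under 0.364 CPM in every tumour. Without SOX2 tumour 1 the Cd59a value was 1.49 (adjusted p = 0.172).

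Cr1l, which encodes the rodent membrane regulator Crry, had the smallest standard error of the tested members. It stood at 34.9, 34.5 and 32.2 CPM in Ivl:BRAFV600E tumours and at 40.3, 38.4 and 39.1 CPM in SOX2 tumours, without overlap and with a log2 fold change of only 0.21 ± 0.11 (adjusted p = 0.271). Cd46 was near 1 CPM throughout (0.924 to 1.53 CPM against 1.15 to 1.55 CPM, log2 fold change 0.04 ± 0.33, adjusted p = 0.953), and its sign changed under upper-quartile scaling (-0.0531). Cd55, the decay-accelerating factor, stood at 2.05, 0.785 and 3.99 CPM against 11.8, 5.15 and 1.95 CPM, so that SOX2 tumour 3 lay below 2 of the Ivl:BRAFV600E tumours (log2 fold change 1.47 ± 0.75, adjusted p = 0.264, and 0.64 without SOX2 tumour 1).

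The C1 inhibitor Serping1, which also restrains kallikrein, overlapped at 26.7, 8.96 and 58.9 CPM against 71.5, 55.1 and 37.6 CPM (log2 fold change 0.80 ± 0.60, adjusted p = 0.432, 1.61 without Ivl:BRAFV600E tumour 3 and 0.36 without Ivl:BRAFV600E tumour 2). Vitronectin (Vtn) lay at 0.185 to 0.475 CPM against 0.253 to 1.20 CPM (adjusted p = 0.304). Factor I (Cfi), the protease that degrades C3b, had at most 2 counts in any tumour and was not tested. Among the 7 tested regulators edgeR and limma called 0, DESeq2 called 2, and 2 had an unadjusted p below 0.05.

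The receptors for C3a and C5a, carried by myeloid cells, were higher in every SOX2 tumour than in any Ivl:BRAFV600E tumour. C3ar1 stood at 3.04, 2.63 and 6.79 CPM against 22.2, 15.4 and 8.41 CPM (log2 fold change 1.89 ± 0.48, adjusted p = 0.0711). C5ar1 stood at 1.36, 3.05 and 4.61 CPM against 14.3, 9.33 and 7.76 CPM (log2 fold change 1.81 ± 0.46, adjusted p = 0.0711). Without SOX2 tumour 1 the log2 fold changes were 1.52 and 1.51 (adjusted p = 0.0998 and 0.1003). edgeR thus called 0 of the 2 receptors, both had an unadjusted p below 0.05, and both were called by DESeq2 and by limma.

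**Figure D2:**
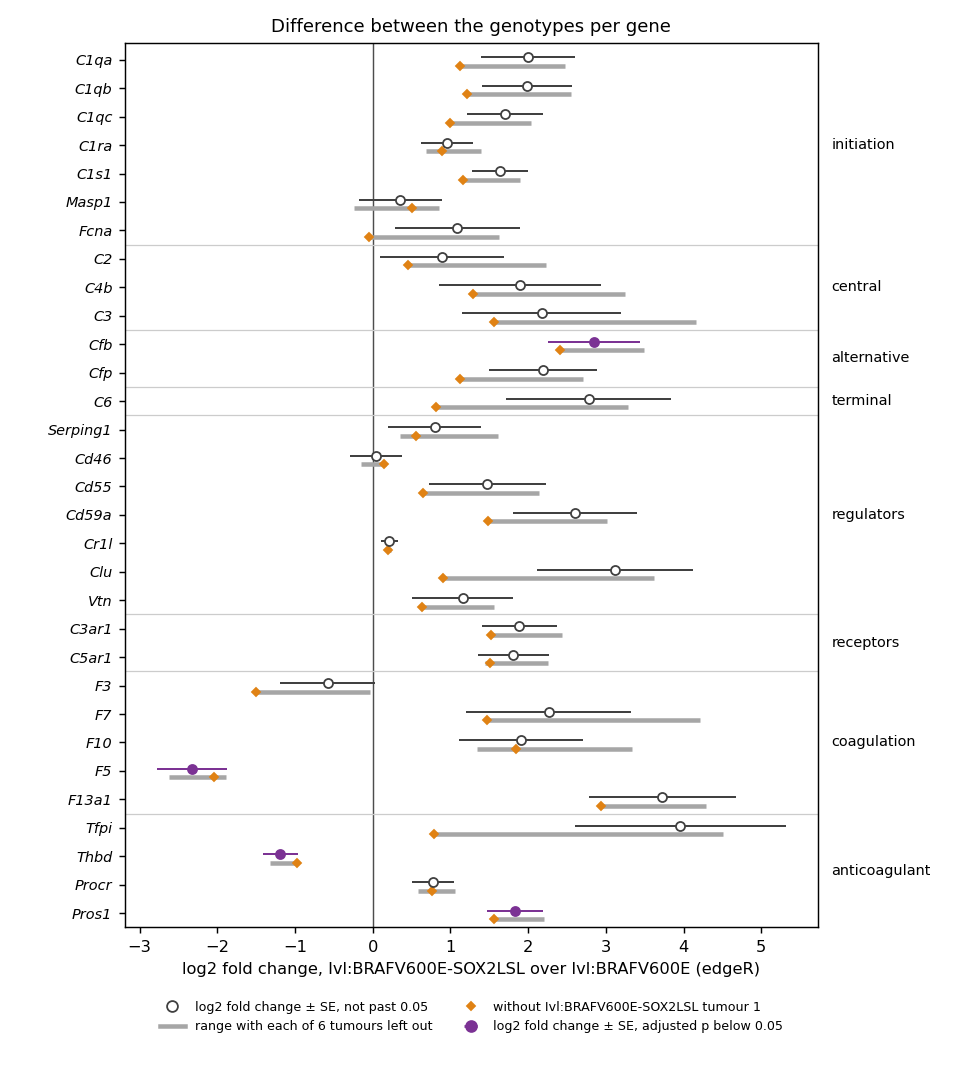
Fitted log2 fold change (SOX2 over Ivl:BRAFV600E tumours, ± SE) of 31 members with their range when each of the 6 tumours was left out, and diamonds for the fit without SOX2 tumour 1. C7 and Proc, at 0 in all Ivl:BRAFV600E tumours, and the untested Cfi are not drawn. F13a1, C3ar1 and C5ar1 stayed well above 0, whereas Clu went from 3.11 to 0.90 and Tfpi from 3.96 to 0.79.

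Markers of macrophages, and of other leukocytes, stood beside these genes. The 12 markers summed to 70.8, 90.2 and 157 CPM in Ivl:BRAFV600E tumours and to 621, 293 and 186 CPM in SOX2 tumours, and all 12 had fitted fold changes above 0. Only Csf1r, the receptor of the macrophage growth factor, passed the edgeR test, 8 of the 12 had an unadjusted p below 0.05, 6 did not overlap between the genotypes, and DESeq2 called 6 and limma 3. The abundant Lyz2 ranged from 15.3 to 59.1 CPM and from 33.6 to 224 CPM. The pan-leukocyte markers summed to 26.7 to 51.7 CPM and to 82.7 to 147 CPM, with 2 of 4 called higher. The 5 mast cell markers summed to 0.139 to 5.76 CPM and to 24.9 to 27.4 CPM, with no overlap for any of the 5 and a median log2 fold change of 2.79. edgeR called 0 of them, 4 had an unadjusted p below 0.05, and DESeq2 and limma each called 3. The neutrophil list summed to 321 to 1197 CPM and to 368 to 1942 CPM, and this sum is mostly S100a8 and S100a9. S100a8 stood at 175 to 635 CPM against 168 to 971 CPM, and S100a9 at 143 to 552 CPM against 174 to 950 CPM. Ly6g, Mpo, Elane, Ngp and Camp reached at most 7, 6, 3, 10 and 4 counts. Csf3r, a receptor of the granulocyte growth factor, stood at 3.10 to 10.1 CPM against 21.2 to 26.1 CPM (adjusted p = 0.0713). Of this list edgeR called 0, 2 had an unadjusted p below 0.05, and DESeq2 and limma each called 1. The part of each of these cell types in the levels of C1q, the receptors and F13a1 was not tested.

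The ratio of the 3 C1q chains to the macrophage list was 0.231, 0.219 and 0.225 in Ivl:BRAFV600E tumours and 0.265, 0.209 and 0.225 in SOX2 tumours, so the groups overlapped although the C1q level itself did not. For C3ar1 and C5ar1 together the ratio was 0.0621, 0.0630 and 0.0727 against 0.0587, 0.0843 and 0.0870, again overlapping. These ratios are descriptive and were not tested. Over the pan-leukocyte list the C1q ratio was 0.612, 0.556 and 0.684 against 1.12, 0.742 and 0.471, which overlapped with a wider spread.

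**Figure D3:**
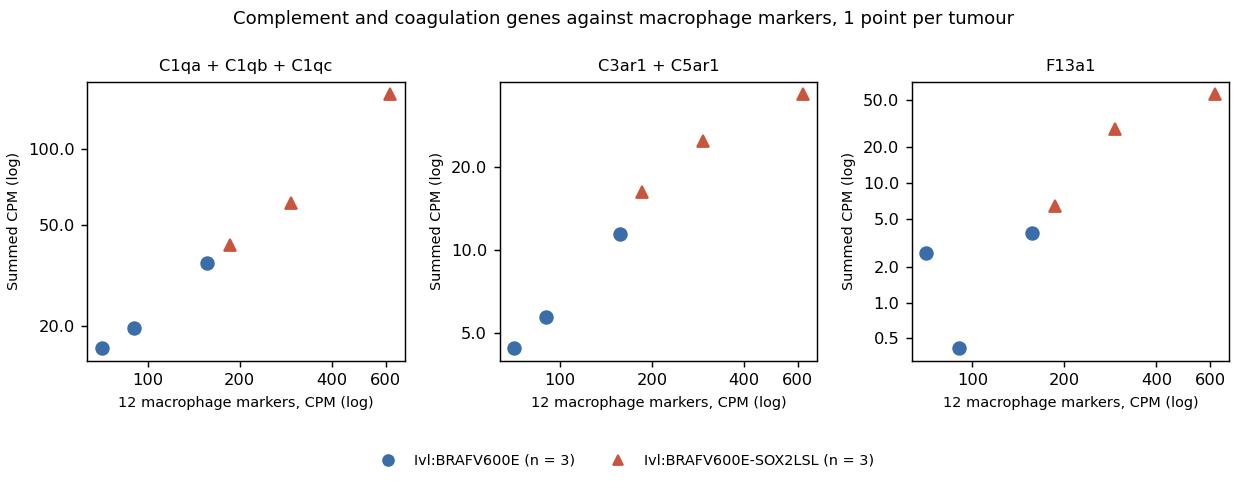
Summed level of the C1q chains, of the anaphylatoxin receptors and of F13a1 (CPM, log axis) against the summed level of 12 macrophage markers (CPM, log axis), with 1 point per tumour. C1q lies near a constant share of the markers, from 0.209 to 0.265, whereas F13a1 ranges from 0.00461 to 0.0966 of them.

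On the coagulation side, F5 (chr1:164151838-164220277, plus strand), the cofactor of factor Xa, fell in SOX2 tumours. It stood at 9.92, 27.4 and 16.3 CPM in Ivl:BRAFV600E tumours and at 2.04, 3.82 and 4.84 CPM in SOX2 tumours, without overlap. The log2 fold change was -2.33 ± 0.45 (adjusted p = 0.0423). F5 was still called without SOX2 tumour 1 (-2.05, adjusted p = 0.0382) but not without any other tumour, where the adjusted p reached 0.114 and the fold change stayed between -2.62 and -1.88.

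Tissue factor (F3), the trigger of the cascade, overlapped at 40.2, 88.8 and 34.2 CPM against 70.7, 23.7 and 14.7 CPM (log2 fold change -0.58 ± 0.61, adjusted p = 0.586). SOX2 tumour 1 was above every tumour but Ivl:BRAFV600E tumour 2 for F3, and without it the value was -1.50 (adjusted p = 0.0972), but without Ivl:BRAFV600E tumour 2 it was -0.0326 (adjusted p = 0.983). Factor VII (F7), its partner, had 2, 0 and 9 counts in Ivl:BRAFV600E tumours and 51, 10 and 16 counts in SOX2 tumours (log2 fold change 2.26 ± 1.06, adjusted p = 0.232). F10, the protease activated by both, stood at 0.0341, 0.185 and 0.665 CPM against 1.18, 0.939 and 1.12 CPM, without overlap (log2 fold change 1.91 ± 0.80, adjusted p = 0.189). Without Ivl:BRAFV600E tumour 3 the values were 4.21 for F7 and 3.34 for F10 (adjusted p = 0.125 and 0.0834). The lowest left-out values were 1.47 for F7 (without SOX2 tumour 1, adjusted p = 0.468) and 1.33 for F10 (without Ivl:BRAFV600E tumour 1, adjusted p = 0.317).

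F13a1, the transglutaminase subunit that crosslinks fibrin, had one of the largest differences. Its level was 2.59, 0.416 and 3.80 CPM against 55.4, 28.3 and 6.43 CPM, without overlap, with a log2 fold change of 3.72 ± 0.94 (adjusted p = 0.0716) and 2.93 without SOX2 tumour 1 (adjusted p = 0.0909). Tissue macrophages also express F13a1. Relative to the macrophage list it stood at 0.0366, 0.00461 and 0.0242 against 0.0892, 0.0966 and 0.0346, so that SOX2 tumour 3 lay just under Ivl:BRAFV600E tumour 1.

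The anticoagulants held 2 of the 4 called members, 1 in each direction. Thbd (chr2:148404466-148408188, minus strand), which encodes thrombomodulin, the receptor that turns thrombin into an activator of protein C, stood at 485, 472 and 460 CPM in Ivl:BRAFV600E tumours and at 139, 244 and 238 CPM in SOX2 tumours. The Ivl:BRAFV600E mean was 473 ± 12.5 CPM (SD, n = 3) and that of SOX2 tumours 207 ± 59.1 CPM, and the log2 fold change was -1.19 ± 0.23 (adjusted p = 0.0396). The call held without SOX2 tumour 1 (-0.97, adjusted p = 0.00753) and was lost without any other tumour (up to 0.160), with the fold change between -1.33 and -0.97.

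Endothelial and keratinocyte markers were set beside Thbd. The 7 endothelial markers summed to 145 to 150 CPM and to 142 to 163 CPM, and edgeR called 0 of them, with 2 at an unadjusted p below 0.05 and 1 called by each of DESeq2 and limma. Thbd over that list was 3.24, 3.27 and 3.10 in Ivl:BRAFV600E tumours and 0.852, 1.72 and 1.48 in SOX2 tumours, without overlap. The 9 keratinocyte markers summed to 89971 to 135003 CPM and to 17164 to 53570 CPM, and this sum is mostly Krt1, Krt10, Krt14 and Dsp. Krt10 stood at 28863 to 36342 CPM against 425 to 7214 CPM, Krt1 at 32201 to 45416 CPM against 1010 to 13012 CPM, and Krt14 at 13436 to 31248 CPM against 6528 to 21151 CPM. Fitted fold changes were below 0 for 5 of the 9 markers and above 0 for 4 (Krt5, Trp63, Cdh1 and Epcam), and only Epcam was called by edgeR, higher (log2 fold change 3.67, adjusted p = 0.0309). The groups did not overlap for 2 markers higher and 4 lower in SOX2 tumours. Of the 9, 6 had an unadjusted p below 0.05, DESeq2 called 4 and limma 2. Thbd over the summed list was 0.00539, 0.00350 and 0.00387 against 0.00809, 0.00455 and 0.00482, which overlapped, and the part of keratinocyte content in the Thbd level was not tested.

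Pros1 (chr16:62854307-62929346, plus strand), protein S, is the cofactor of activated protein C and a ligand of the TAM receptors. It rose from 16.6, 9.56 and 24.4 CPM to 80.4, 51.8 and 48.2 CPM, without overlap. The log2 fold change was 1.84 ± 0.36 (adjusted p = 0.0427). As for F5 and Thbd, the call held without SOX2 tumour 1 (1.57, adjusted p = 0.0421) and was lost without any other tumour (up to 0.170).

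Procr, the endothelial protein C receptor, stood at 15.6, 24.9 and 14.8 CPM against 32.2, 39.4 and 23.2 CPM, and only SOX2 tumour 3 and Ivl:BRAFV600E tumour 2 overlapped (log2 fold change 0.78 ± 0.27, adjusted p = 0.135). Protein C itself (Proc) had 12 counts in SOX2 tumour 1 and 0 elsewhere, and no fold is given. Tfpi, the inhibitor of tissue factor, stood at 1.74, 1.39 and 3.18 CPM against 90.5, 2.43 and 4.84 CPM. Its log2 fold change of 3.96 ± 1.36 (adjusted p = 0.131) was the largest of the members counted in both genotypes, yet 0.79 without SOX2 tumour 1 (adjusted p = 0.348).

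SOX2 tumour 1 also held the highest levels of 4 of 6 adipocyte genes, Adipoq at 4.197 CPM, Plin1 at 8.37 CPM, Cidec at 8.14 CPM and Lep at 0.951 CPM, which were at or under 0.285 CPM in the other 5 tumours. The more abundant Fabp4 (36.4 CPM in that tumour against 43.7 CPM in Ivl:BRAFV600E tumour 1) and Lipe (26.9 CPM against 35.7 to 40.9 CPM in Ivl:BRAFV600E tumours) were not highest there, and their fitted log2 fold changes were -0.25 and -0.61 (adjusted p = 0.784 and 0.0509). The adipocyte list as a whole summed to 52.4 to 84.5 CPM and to 37.7 to 84.9 CPM, with 0 of 6 called by edgeR, 3 at an unadjusted p below 0.05, and 1 called by each of DESeq2 and limma. The part of fat tissue in the Clu, Tfpi, C6 and C7 values of that tumour was not tested.

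Per length of exon, Thbd was the most abundant member in Ivl:BRAFV600E tumours, at 127 ± 3.37 CPM per kb (SD, n = 3), followed by F3 at 21.5 ± 11.9 and Serping1 at 13.6 ± 10.9. In SOX2 tumours Clu came first at 81.0 ± 110 CPM per kb, Thbd second at 55.6 ± 15.9 and C1qb next at 31.9 ± 23.1, but the spread of Clu exceeds its lead and rests on tumour 1. Among the 12 highest members of each genotype, the means of neighbours in the order differed by less than the larger of their SDs, apart from Thbd and F3 in Ivl:BRAFV600E and Thbd and C1qb in SOX2 tumours. Among the C1q chains C1qc was lowest per length in both genotypes (3.68 ± 0.918 and 11.9 ± 8.18 CPM per kb).

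**Figure D4:**
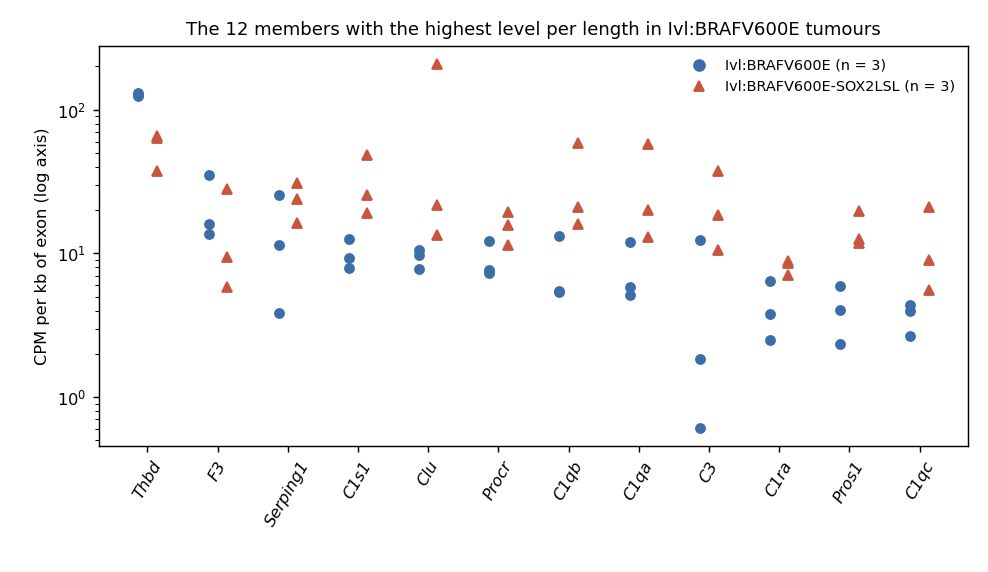
Level per kb of exon (CPM per kb, log axis) in each tumour for the 12 members highest in Ivl:BRAFV600E tumours, with circles for Ivl:BRAFV600E and triangles for SOX2 tumours (n = 3 each). Thbd stands above all other members in Ivl:BRAFV600E tumours, at a mean of 127, and Clu in SOX2 tumour 1 is the only other value above 100.

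Other genes of the same cascades were read from lists made by function. Of 23 further complement genes tested, edgeR called 0, 4 had an unadjusted p below 0.05, DESeq2 called 4 and limma 2, and the median log2 fold change was 0.31. Of 19 further coagulation genes tested, edgeR and limma called 0, 3 had an unadjusted p below 0.05 and DESeq2 called 2, with a median of 0.29. Over the 33 tested members the median was 1.84. The fibrinogen genes Fga, Fgb and Fgg, plasminogen (Plg) and factors F9 and F11 had 0 counts in every tumour.

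The fibrinolysis list, the system that dissolves fibrin, held 3 called genes of 10 tested, all higher, where 2.39% of all genes were called higher. Of the 10, 7 had an unadjusted p below 0.05, DESeq2 called 6 and limma 3, and the median log2 fold change was 1.20. S100a10, part of a plasminogen receptor, rose from 50.7, 51.6 and 36.7 CPM to 159, 128 and 120 CPM (log2 fold change 1.55 ± 0.18, adjusted p = 0.0143). Its partner Anxa2 rose from 404, 446 and 395 CPM to 774, 909 and 747 CPM (log2 fold change 0.97 ± 0.15, adjusted p = 0.0266). Plau, the urokinase plasminogen activator, rose from 40.7, 38.3 and 50.6 CPM to 98.4, 87.0 and 86.1 CPM (log2 fold change 1.07 ± 0.15, adjusted p = 0.0206). None of the 3 overlapped between the genotypes, and the spread within each genotype was small beside the difference. S100a10 was called in 4 of the 6 fits with a tumour left out, Plau in 3 and Anxa2 in 2, with adjusted p up to 0.0914, 0.121 and 0.129. With sex as a covariate Anxa2 lost its call (adjusted p = 0.0730).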

How the data were processed

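Ribosomal-RNA-depleted bulk tumour RNA was sequenced. The authors aligned the reads to GRCm38 with HISAT2 2.1.0 and counted them per gene with featureCounts (Subread 1.6.3), after FastQC 0.11.8 and Trim Galore, and deposited raw counts, unnormalised. Strand use in counting was not given in the sources used here. Of 7 columns, 6 were assigned to a genotype by the mouse in the name, which the paper's source data list with that genotype. The remaining 1 matched no mouse listed there. Its name is of the SOX2 kind while the labels list 4 Ivl:BRAFV600E and 3 SOX2 tumours, so its genotype is uncertain. It was not used. Hence 3 tumours per genotype were compared. Each column is a different mouse.

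The filter kept 24433 genes, those reaching 5 reads in any tumour, which were tested with edgeR 4.0.16 (R 4.3.3), TMM scaling, the quasi-likelihood test and Benjamini-Hochberg adjustment over all genes at 0.05. Alternatives were DESeq2 1.42.0, limma 3.58.1, other scalings and filters, sex as a covariate and leaving out each tumour. 3 counts were taken as the floor (0.0839 to 0.143 CPM), which covers counting error only. Positions and exon lengths came from GENCODE M21 (GRCm38). The scripts were tested on simulated data. Python 3.11.15, pandas 2.3.3 and matplotlib 3.10.9 made tables and figures.

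All members are named, those called or without overlap with every tumour's value, of the cascade lists the called genes with the smallest p, and of the marker genes the 2 with the highest mean level (Krt1 and Krt14) and defining markers near 0. Other marker genes, copies of members and genes at 0 were named after their values were seen. The members and lists were chosen with earlier results of these data known.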

Additional observations from a re-analysis of the deposited data

How the results depend on the processing

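The fold changes of the members seldom changed sign: of 216 values under another tool, scaling, filter or covariate 2 reversed, and of 186 values with a tumour left out 4 reversed. These were Cd46 (-0.0531 with upper-quartile scaling, and -0.15 to 0.17 with each tumour left out), Masp1 (-0.0111 with sex as a covariate, and -0.24 to 0.85 with each left out) and Fcna (-0.0515 without SOX2 tumour 1, up to 1.63 without another). The calls depended far more on the setting. Against 954 genes and 4 members called, DESeq2 called 3653 and 15, limma 2142 and 7, no filter on low counts 1759 and 10, filterByExpr 1296 and 5, sex as a covariate 228 and 1 (C3ar1), DESeq2 size factors 927 and 3 and upper-quartile scaling 974 and 3. Of the further cascade genes, 12, 5 and 8 were called by DESeq2, limma and without the filter, against 3, and of the marker genes 35 by DESeq2, 24 without the filter and 8 with sex, against 14. All 4 called members were also called by DESeq2, limma, no filter and filterByExpr, and none with sex as a covariate.

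With each tumour left out, 22 (without Ivl:BRAFV600E tumour 1) to 1575 genes (without SOX2 tumour 1) were called, 0 to 4 members, 0 to 5 further cascade genes and 0 to 18 marker genes. In the 5 fits with 0 members called, 12 to 21 of them had an unadjusted p below 0.05, as did 18.0% to 24.2% of all genes. Thbd per kb was 113 without TMM against 127 with it in Ivl:BRAFV600E tumours, and 61.9 against 55.6 in SOX2 tumours. The TMM factors were 0.824 to 0.941 in Ivl:BRAFV600E and 1.07 to 1.26 in SOX2 tumours. Why the calls depend on the setting was not tested. No paired analysis was possible because the columns carry no replicate number. With 3 tumours per genotype, an exact permutation test could not go below 0.1.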
